A study of Mus musculus with 2 samples.

Results

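The 6 genes described here are Stat2, Stat3, Stat4, Stat5a, Stat5b and Stat6 of the STAT family of transcription factors. They were chosen by family membership, but with earlier results of these data known. They are 6 of 22180 genes that the array's platform annotation names with a single symbol. Each was measured by 1 probe set. The RNA came from mouse bone marrow-derived dendritic cells, named GMDC by the submitters. A first culture was grown with conditioned medium of topotecan-treated E0771 cells. E0771 is a mammary tumour line of the mouse, and topotecan is a drug that blocks topoisomerase I. The other culture was labelled control. Each culture was measured on 1 array, so the differences have no replicate check and no test was possible. The labels give neither the mouse strain nor the age, dose or time, and the control's medium is not described there. The effect of the drug on the tumour cells and that of any tumour-conditioned medium therefore cannot be told apart.

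STAT proteins wait in the cytoplasm until a cytokine binds its receptor. A Janus kinase on the receptor then phosphorylates a tyrosine of the STAT, the STATs pair through their SH2 domains, and the pair enters the nucleus and binds DNA. STAT2 works with IRF9 in the complex ISGF3, which carries the signal of type I interferon. STAT3 serves interleukin-6 and interleukin-10, STAT4 serves interleukin-12, STAT5A and STAT5B serve GM-CSF and related growth factors, and STAT6 serves interleukin-4 and interleukin-13. Several STAT genes are themselves transcribed more strongly in cells that receive interferon or interleukin-6. An array reads transcript levels and does not read phosphorylation, so the values below say nothing of how much STAT protein was active.

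Stat2 had the largest difference of the 6 genes and was higher with conditioned medium. Stat3 was also higher, by slightly more than 2-fold, and Stat5b and Stat5a were higher by smaller amounts. Stat4 was lower and Stat6 was nearly level. Counted by a fixed size of 2-fold, 2 of the 6 genes were higher, 0 were lower and 4 lay between. Among all 13712 kept genes, 8.63% passed that size upward and 6.84% downward. A gene was kept when the higher of its 2 values reached 4.10, the median of all values on both arrays, and all 6 STAT genes were kept. The median log2 difference of the 6 was 0.52, beside -0.07 for all kept genes. Their differences spanned 3.13 log2 units.

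**Figure D1:**
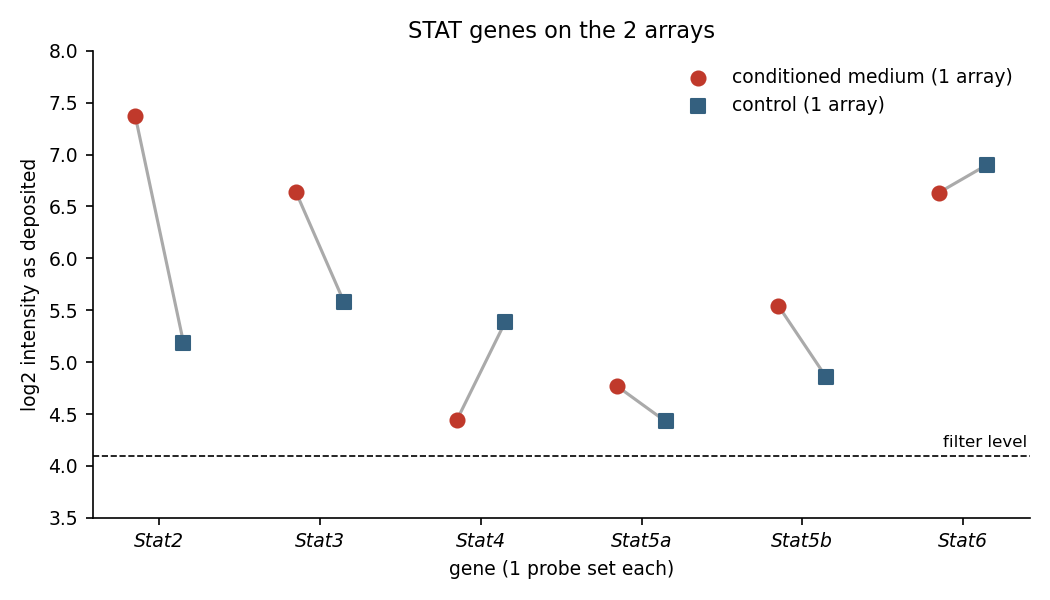
Log2 intensity of each STAT gene (y axis) on the conditioned-medium array (circles) and the control array (squares), 1 array each; the dashed line is the filter level of 4.10. Stat2 stood at 7.37 with conditioned medium and at 5.19 in the control, whereas Stat4 stood at 4.44 with conditioned medium and 5.38 in the control.

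Stat2, the interferon-signalling member, had a log2 intensity of 7.37 with conditioned medium and 5.19 in the control (probe set 17238367). The log2 difference was 2.18, or 4.54-fold higher. Only 2.28% of kept genes had a difference as high. Among the 2288 kept genes whose mean level lay within 0.5 log2 units of that of Stat2, 2.97% did.

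Stat3, the member activated by interleukin-6 and interleukin-10, had a log2 intensity of 6.64 with conditioned medium and 5.58 in the control (probe set 17269717). It was 2.09-fold higher, a log2 difference of 1.06 that lay just past the 2-fold line. Of kept genes, 7.99% had a difference as high, so Stat3 lay well inside the range of many other genes.

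Stat5b and Stat5a encode closely related proteins that carry the signal of GM-CSF. Stat5b had a log2 intensity of 5.55 with conditioned medium and 4.85 in the control, and was 1.62-fold higher. Stat5a had 4.77 with conditioned medium and 4.43 in the control, and was 1.26-fold higher. Both genes lay under the 2-fold size. Stat5a was close to the filter level on both arrays, where signal may be background. The sequences of this pair are similar, and their probe sets could share signal.

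Stat6, which carries the signal of interleukin-4 and interleukin-13, had a log2 intensity of 6.63 with conditioned medium and 6.90 in the control (probe set 17238064). The log2 difference of -0.27 was small, and 39.4% of 1814 kept genes of similar level had a difference as low.

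Stat4, the member that serves interleukin-12 in T cells, NK cells and dendritic cells, was the lowest. Its log2 intensity was 4.44 with conditioned medium and 5.38 in the control (probe set 17212724), 1.92-fold lower. Of kept genes, 7.84% had a difference as low. With conditioned medium the value lay 0.34 above the filter level, so the size of the difference may be limited by background.

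The only error that 2 arrays offer is the disagreement between probe sets of the same gene. In genes with several probe sets above the filter level, the log2 differences had a pooled SD of 0.46 within genes (787 degrees of freedom). Stat2, Stat3, Stat4 and Stat5b differed by more than this SD, and Stat5a and Stat6 by less. That SD holds no variation between cultures. Stat5b and Stat3 differed from each other by 0.37 log2 units in their differences, and Stat5a and Stat5b by 0.36, both less than 1 such SD. Stat2 and Stat3 lay 1.12 apart. The SD is that of a single difference, and a gap between 2 differences varies more than that.

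**Figure D2:**
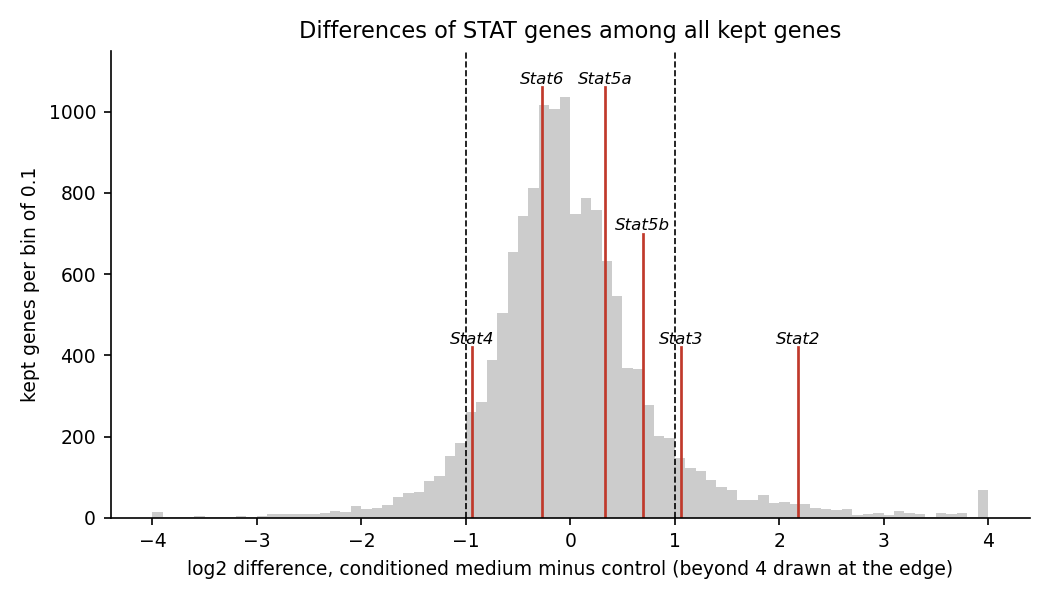
Histogram of the log2 difference, conditioned medium minus control, of all 13712 kept genes (x axis, bins of 0.1; y axis, genes per bin), with a vertical line at each STAT gene and dashed lines at 2-fold. Stat2 at 2.18 lies in the upper tail, and Stat6 at -0.27 and Stat5a at 0.34 lie in the body of the distribution.

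The direction of each of the 6 differences was the same when the arrays were quantile-normalized, when a loess curve against the mean level was subtracted and when the differences were centred on kept genes. Stat2 then ranged from 2.17 to 2.27 and Stat3 from 1.05 to 1.15. Stat4 ranged from -0.95 to -0.87, so it stayed short of 2-fold under each of these scalings.

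**Figure D3:**
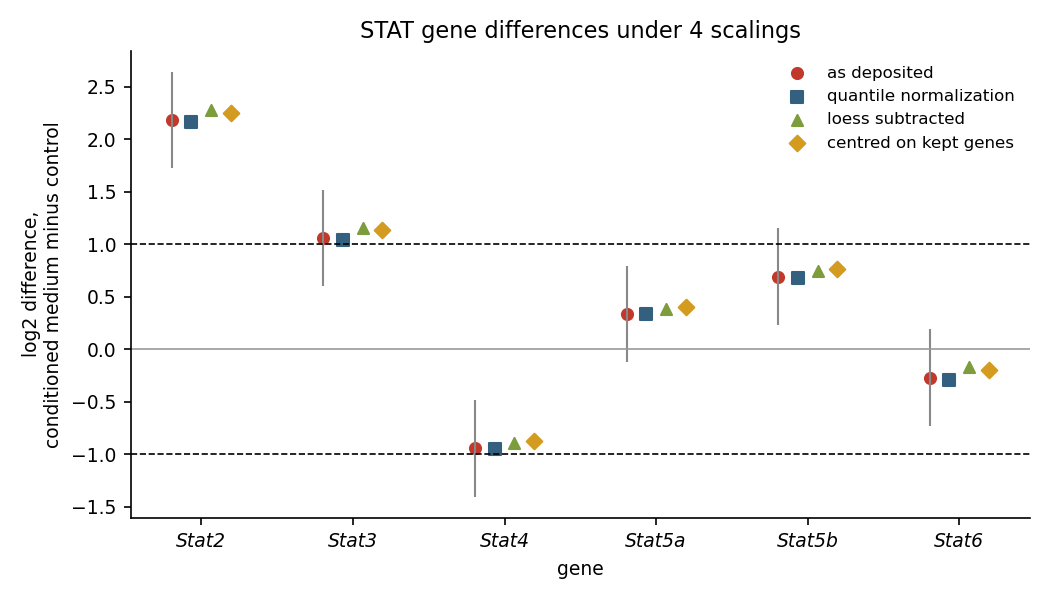
Log2 difference, conditioned medium minus control (y axis), of each STAT gene as deposited and under 3 other scalings; grey bars are 1 pooled SD between probe sets of the same gene (0.46), not a replicate error, and dashed lines mark 2-fold. These scalings moved the genes by at most 0.10, less than the bars.

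The promoters of the STAT genes were read to show whether letters that STAT complexes are known to bind stand near their start sites. RefSeq windows (assembly GRCm38.p6, 250 bases before to 50 after a start site) were found for 6 of 6 genes, 9 windows in all. Stat2, the gene with the largest difference, is shown whole at chr10:128270248-128270547 on the plus strand, with capitals marking motif matches.
Stat2: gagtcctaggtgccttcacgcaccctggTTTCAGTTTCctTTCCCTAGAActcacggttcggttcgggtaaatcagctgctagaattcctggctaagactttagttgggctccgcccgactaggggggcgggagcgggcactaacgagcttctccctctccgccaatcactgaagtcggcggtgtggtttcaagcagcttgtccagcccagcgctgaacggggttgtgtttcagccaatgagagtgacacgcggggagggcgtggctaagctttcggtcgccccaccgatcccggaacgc

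The first capitals in the Stat2 window match the core of the interferon-stimulated response element that ISGF3 binds, searched as GAAA, any 2 bases and GAAA. The match lies on the opposite strand and starts at position -222 from the start site. The next capitals match the wide STAT element (TTC, any 4 bases and GAA), a spacing associated with STAT6, and the matches do not overlap. Both strands were searched for these and for TTCNNNGAA, the general STAT element. Of all 32851 windows, 3.44% held the interferon-response core, 6.95% the wide STAT element and 8.30% the general one. Of the 9 STAT windows, 2 held the interferon-response core, 1 the wide STAT element and 0 the general one. The other match to the interferon-response core lay in a second Stat4 window, at position -97 in chr1:52008133-52008162 on the plus strand, in a gene that was lower with conditioned medium.
Stat4: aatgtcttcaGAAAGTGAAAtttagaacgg

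The Stat3 window held none of the 3 motifs, and Stat3 is shown for comparison as the other gene past 2-fold, at chr11:100939491-100939790 on the minus strand. A match is a description of letters and not a binding site, and a missing match says only that these letters are not in this window.
Stat3: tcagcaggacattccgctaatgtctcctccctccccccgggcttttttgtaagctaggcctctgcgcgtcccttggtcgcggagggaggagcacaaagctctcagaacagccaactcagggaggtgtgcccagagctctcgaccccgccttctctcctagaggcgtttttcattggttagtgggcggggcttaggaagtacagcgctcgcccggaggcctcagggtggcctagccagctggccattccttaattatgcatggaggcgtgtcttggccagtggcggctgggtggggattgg

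Stat5b and Stat5a have promoter windows that share a stretch, in 1 of the 4 pairs of their windows. In the other pairs the best alignments were 14 to 21 bases long. In the best local alignment between the windows of different STAT genes, 58 of 65 bases were identical without gaps (89.2%). The stretches lie at chr11:100822563-100822627 on the minus strand for Stat5b and at chr11:100860418-100860482 on the plus strand for Stat5a, and capitals mark the bases that differ.
Stat5b: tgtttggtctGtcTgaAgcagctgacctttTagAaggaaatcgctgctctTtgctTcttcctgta
Stat5a: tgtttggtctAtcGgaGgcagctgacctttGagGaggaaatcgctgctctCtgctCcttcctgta

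The STAT genes also lie in groups in the genome. Stat5b, Stat5a and Stat3 follow one another on chromosome 11 in the RefSeq table, and all 3 were higher with conditioned medium, with log2 differences of 0.69, 0.34 and 1.06. The flanking genes were Ghdc beside Stat5b, with a log2 intensity of 4.68 with conditioned medium and 5.24 in the control, and Cavin1 beside Stat3, with 5.66 with conditioned medium and 5.36 in the control. On chromosome 10, Stat2 lies between Apof and Il23a. Apof, an apolipoprotein gene, had a log2 intensity of 7.83 with conditioned medium and 4.54 in the control, 9.83-fold higher. Il23a, which encodes a subunit of interleukin-23, had 5.35 with conditioned medium and 3.60 in the control, and was 2.38-fold higher against the filter level. Stat6, on the same chromosome, lies between Lrp1, with 3.99 with conditioned medium and 4.49 in the control, and Nab2, with 5.80 with conditioned medium and 5.37 in the control.

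Genes that act around the STAT proteins were read as 10 lists by role, which were drawn up with earlier results of these data known. The lists held 179 genes, of which 170 were measured and 151 kept. Of these 151, 59 passed 2-fold upward, 11 passed it downward and 81 lay between. Each list is to be read beside all kept genes, of which 8.63% passed upward and 6.84% downward, with a median of -0.07. Some genes stand in several lists, and many have regulators other than STATs, so a list's count is not a reading of one STAT.

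**Figure D4:**
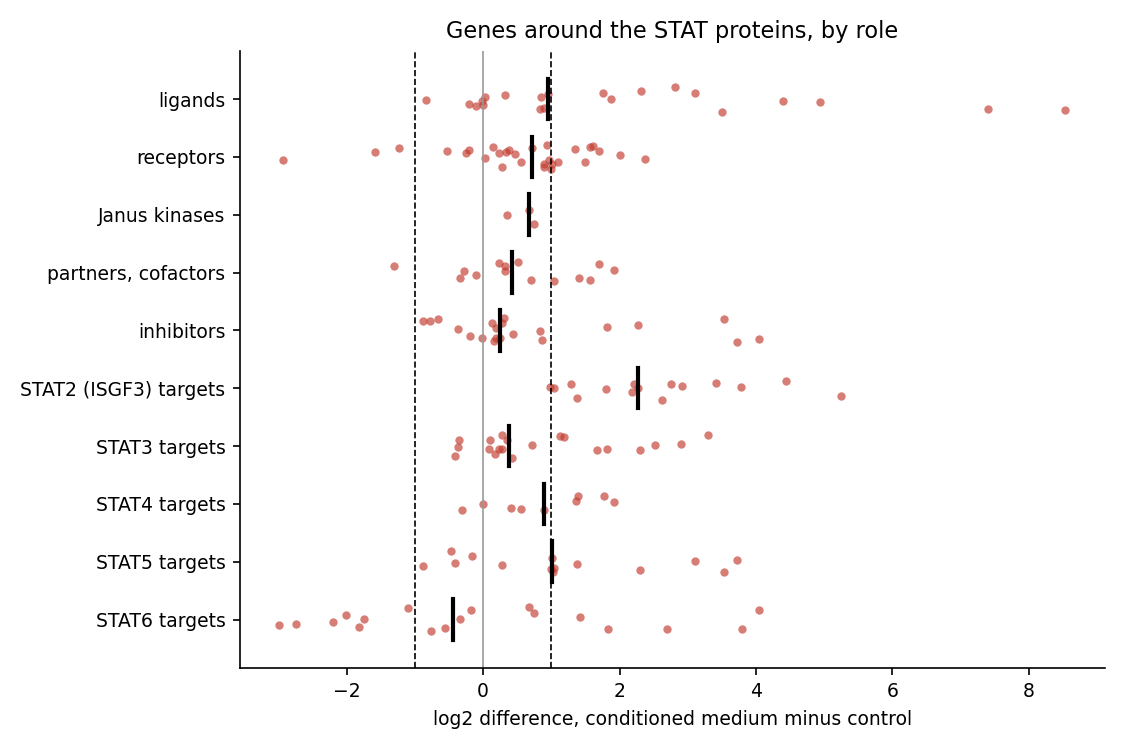
Log2 difference, conditioned medium minus control (x axis), of every kept gene in 10 lists by role (rows); each point is a gene, black bars are list medians and dashed lines mark 2-fold. The STAT2 targets lie to the right, with a median of 2.27, and the STAT6 targets lie on both sides of 0.

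Several cytokines that signal through STAT receptors were higher. Of 21 kept ligands, 10 passed 2-fold upward and 0 downward, 11 lay between, and the median log2 difference was 0.95. With low values raised to the filter level, 10 passed upward and 0 downward, and the median was 0.84. Ifnb1, the gene of interferon beta and a ligand upstream of STAT2, had a log2 intensity of 10.73 with conditioned medium and 2.19 in the control, 99.0-fold higher against the filter level. Il6, a ligand upstream of STAT3, had 11.51 with conditioned medium and 4.11 in the control. Il10, also upstream of STAT3, had 9.79 with conditioned medium and 5.39 in the control, 21.0-fold higher. Il27, a subunit of interleukin-27, was 30.6-fold higher, at 10.94 with conditioned medium and 6.01 in the control. For each of these 4 ligands the conditioned-medium array was far above the control array. Other ligands of the list varied. The interferon genes Ifna4 (5.35 with conditioned medium and 5.46 in the control) and Ifnl3 (5.76 and 5.74) were level. Ifnk was 2.34-fold and Il23a 2.38-fold higher against the filter level. Osm was 8.61-fold higher, whereas Lif and Clcf1 lay under 2-fold. The interleukin-12 subunits and the STAT6 ligands Il4 and Il13 also lay under 2-fold. Il12a, a subunit of interleukin-12, had 4.28 with conditioned medium and 4.29 in the control. Il12b, the other subunit, had 5.15 with conditioned medium and 4.31 in the control. Il4 had 4.11 on both arrays, at the filter level, and Il13 had 4.13 with conditioned medium and 3.18 in the control. Csf2, which encodes GM-CSF, lay under the filter level at 3.77 with conditioned medium and 3.93 in the control. Il3 and Il5 also lay under it on both arrays. Tslp, another growth factor gene of the list, was 11.3-fold higher, at 9.52 with conditioned medium and 6.01 in the control. The lowest differences of the list were those of Il11 (-0.83, and -0.18 with its low value raised to the filter level) and Il15 (-0.21).

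Receptor genes differed in both directions. Of 29 kept receptor genes, 9 passed 2-fold upward and 3 downward, 17 lay between, and the median was 0.71. With low values raised to the filter level, 8 passed upward and 2 downward. Il15ra, the high-affinity chain for interleukin-15, was highest, 5.20-fold at 7.92 with conditioned medium and 5.54 in the control. Il10ra, the ligand-binding chain for interleukin-10 upstream of STAT3, was 4.03-fold higher, at 7.22 with conditioned medium and 5.21 in the control. Ifnar2, a chain of the type I interferon receptor, was 2.15-fold higher, at 10.28 with conditioned medium and 9.18 in the control, and Ifnar1, the partner chain, was 1.92-fold higher, at 6.34 with conditioned medium and 5.39 in the control. Csf2rb, the signalling chain of the GM-CSF receptor, was 2.82-fold higher, at 6.95 with conditioned medium and 5.45 in the control. The ligand-binding chain Csf2ra had a log2 difference of 0.46 and the related chain Csf2rb2 one of -0.53. Il4ra, upstream of STAT6, was 1.64-fold higher, under the 2-fold size. The 3 lower genes were Csf1r, Lifr and Flt3. Csf1r, a receptor tyrosine kinase for the macrophage growth factor CSF1, was 7.61-fold lower, at 5.66 with conditioned medium and 8.58 in the control. Lifr, the receptor for LIF, had a log2 difference of -1.59, at 4.43 with conditioned medium and 6.01 in the control. Flt3, a receptor tyrosine kinase of blood progenitors, lay under the filter level with conditioned medium and was 1.22-fold lower against it.

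The Janus kinases lay under 2-fold. Jak2 had a log2 intensity of 7.16 with conditioned medium and 6.41 in the control, 1.68-fold higher. Tyk2 had 6.06 with conditioned medium and 5.39 in the control, 1.59-fold higher, and Jak1 had 7.27 with conditioned medium and 6.91 in the control, 1.28-fold higher. All 3 differences were above 0, and 0 of 3 passed 2-fold; Jak3 was not analysed here.

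Of 14 kept partners and cofactors, 5 passed 2-fold upward and 1 downward, 8 lay between, and the median was 0.42. Irf9, the DNA-binding partner of STAT2 in ISGF3, had a log2 intensity of 7.62 with conditioned medium and 6.21 in the control, 2.65-fold higher. Both named parts of ISGF3, Stat2 and Irf9, were thus past 2-fold. Nmi, an interferon-inducible protein that binds STATs, was 3.77-fold higher, at 10.40 with conditioned medium and 8.48 in the control. Rela, an NF-kB subunit, was 3.23-fold higher, at 6.95 with conditioned medium and 5.25 in the control. The coactivator genes Ep300 (log2 difference 0.23) and Crebbp (-0.34) were nearly level. Kpna2, a nuclear import receptor, was 2.47-fold lower, at 7.45 with conditioned medium and 8.75 in the control.

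Among inhibitors of the pathway, a few feedback genes were far higher and most others were nearly level. Of 21 kept, 5 passed 2-fold upward and 0 downward, 16 lay between, and the median was 0.25. Socs1, a feedback inhibitor of Janus kinases, had 9.49 with conditioned medium and 5.45 in the control. Cish, a feedback inhibitor induced by STAT5, had 8.57 with conditioned medium and 4.85 in the control, 13.2-fold higher. Its other probe set had 4.50 with conditioned medium and 3.11 in the control, under the filter level, against which the log2 difference was 0.41, short of 2-fold. Socs2 was 8.65-fold higher against the filter level, with 1.13 log2 units in its other probe set. Socs3, an inhibitor of STAT3 signalling from interleukin-6 receptors, was 3.52-fold higher, at 8.68 with conditioned medium and 6.87 in the control, and its other probe set differed by 0.94 log2 units, short of 2-fold. Usp18, which limits type I interferon signalling, was 4.82-fold higher. The phosphatase and PIAS genes that were kept lay under 2-fold, with Ptpn1 lowest, 1.84-fold lower at 5.10 with conditioned medium and 5.98 in the control, and Ptprc next, 1.71-fold lower. The phosphatase genes went both ways, with Ptpn2 1.82-fold and Ptpn11 1.79-fold higher.

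Promoter windows of Cish, Socs1, Socs3 and Irf9 were searched as well. Only Cish and Socs3, both textbook STAT targets, held TTCNNNGAA, and their stretches are shown with the matches in capitals. Each of these 2 genes has a single RefSeq window. The Socs1 window held the interferon-response core instead, and 1 Irf9 window held the wide STAT element. For Cish the stretches lie at chr9:107296649-107296677 and chr9:107296660-107296688 on the plus strand, where the stretches overlap and the matches do not, and for Socs3 the stretch lies at chr11:117969502-117969530 on the minus strand.
Cish: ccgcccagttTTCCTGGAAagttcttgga
Cish: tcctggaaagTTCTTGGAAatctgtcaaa
Socs3: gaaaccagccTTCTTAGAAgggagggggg

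Of 15 kept targets of STAT2 in ISGF3, 14 passed 2-fold upward and 0 downward, 1 lay between, and the median log2 difference was 2.27. Rsad2, which encodes the antiviral protein viperin, had 10.10 with conditioned medium and 4.85 in the control, 37.9-fold higher. Cmpk2, a mitochondrial nucleotide kinase, was 21.8-fold higher, at 10.47 with conditioned medium and 6.03 in the control. Oas2 (2.06-fold) and Rtp4 (1.98-fold) had the smallest differences of the list. Stat2 itself, with 2.18, lay close to the median of these targets.

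Targets of STAT3 were mixed. Of 20 kept, 8 passed 2-fold upward and 0 downward, 12 lay between, and the median was 0.39. With low values raised to the filter level, 7 passed upward. The higher genes included the acute-phase gene Saa3 (12.65 with conditioned medium and 9.35 in the control, 9.82-fold), the protease inhibitor gene Timp1 (11.65 with conditioned medium and 8.74 in the control, 7.48-fold) and Il1rn, the interleukin-1 receptor antagonist (5.72-fold). The transcription factor genes Bcl3 (log2 difference 0.42), Cebpd (0.35), Bcl6 (0.23) and Junb (0.17) lay under 2-fold. The survival genes Mcl1 (-0.36) and Bcl2l1 (-0.42) were lowest. Stat3, with 1.06, lay between the higher and the level targets.

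Of 9 kept targets of STAT4, 4 passed 2-fold upward and 0 downward, and the median was 0.89. Of the 9, 3 passed it upward when values under the filter level were raised to it, and the median was then 0.56. Gadd45g, a stress-inducible signalling gene, was highest, 3.79-fold at 10.11 with conditioned medium and 8.18 in the control. Il18r1, a receptor chain for interleukin-18, was 2.82-fold higher against the filter level, at 5.59 with conditioned medium and 3.82 in the control. Tbx21, the gene of the T helper factor T-bet, had 4.40 on both arrays and Hlx had 6.38 with conditioned medium and 6.69 in the control. The Tbx21 and Il4 values were identical between the arrays, as in 1722 of all 41345 probe sets, for a reason not known here. Ifng, the main product of STAT4 in T and NK cells, lay under the filter level at 3.10 with conditioned medium and 2.87 in the control. Of 6 T cell markers measured, the values ran from 3.58 to 5.19 with conditioned medium and from 3.32 to 5.25 in the control. Of 5 NK cell markers, they ran from 3.03 to 5.27 with conditioned medium and from 2.52 to 4.72 in the control. Prf1, the highest of these on both arrays, is also among the 9 STAT4 targets. Ncr1 lay under the filter level at 4.04 with conditioned medium and 3.69 in the control. Only 5 of the T cell markers and 2 of the NK cell markers were kept, so their sums hold values near or under the filter level. The summed level of the T cell markers was 7.08 with conditioned medium and 6.98 in the control, and that of the NK cell markers was 6.53 with conditioned medium and 6.26 in the control. Their part in the Stat4 value was not tested.

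Targets of STAT5 were more often higher than not. Of 14 kept, 8 passed 2-fold upward and 0 downward, 6 lay between, and the median was 1.01. With low values raised to the filter level, 7 passed upward. After Cish and Socs2 came Osm, the gene of oncostatin M, with 7.78 with conditioned medium and 4.68 in the control, 8.61-fold higher, and Ccnd1, the gene of cyclin D1, 4.93-fold higher. Pim1 (log2 difference 0.27), Pim2 (-0.16) and Bcl2l1 (-0.42) were nearly level. Irf8, a transcription factor gene that STAT5 is known to repress, was 1.85-fold lower, at 9.54 with conditioned medium and 10.42 in the control, and its other probe set differed by -0.23 log2 units. Ncam1 was 1.39-fold lower. Stat5a and Stat5b themselves, with differences of 0.34 and 0.69, lay under the median of these targets.

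Targets of STAT6 were split, and Stat6 itself was nearly level. Of 18 kept, 5 passed 2-fold upward and 7 downward, 6 lay between, and the median was -0.45. With low values raised to the filter level, 6 passed downward. The lower genes were the alternative-activation markers Chil3 (7.57 with conditioned medium and 10.55 in the control, 7.92-fold lower) and Mrc1, the mannose receptor gene (7.01 with conditioned medium and 9.75 in the control, 6.69-fold lower), with Pparg (4.58-fold), Clec10a (4.03-fold) and the chemokine genes Ccl17, Ccl22 and Ccl24. The chemokines lay under the filter level with conditioned medium, and against it they were 2.96, 2.45 and 1.66-fold lower. The higher genes were Socs1, Cdh1, Arg1 (6.86 with conditioned medium and 4.16 in the control, 6.47-fold), Irf4 (3.55-fold) and Pdcd1lg2 (2.68-fold). Cdh1, the gene of E-cadherin, had 10.21 with conditioned medium and 6.42 in the control, but its other probe set differed by 0.55 log2 units.

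**Figure D5:**
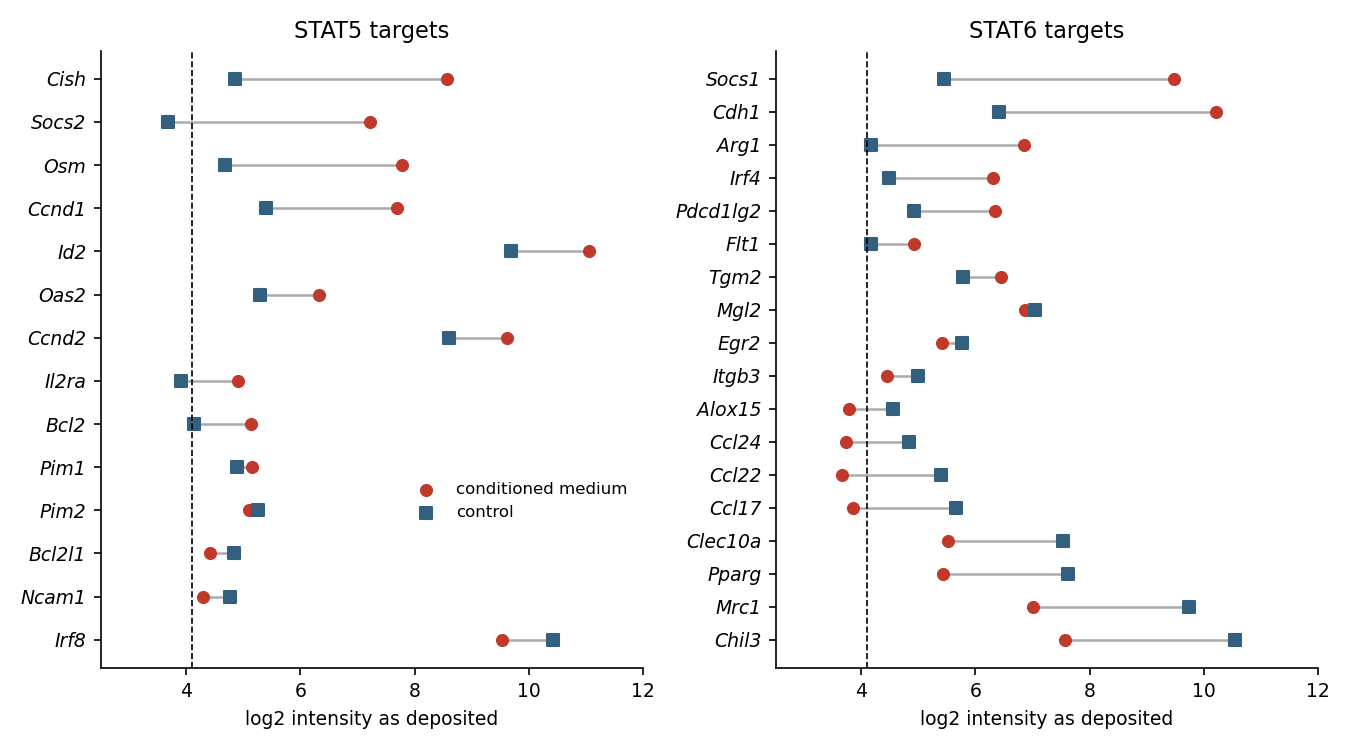
Log2 intensity (x axis) of each kept target of STAT5 (left) and STAT6 (right) on the conditioned-medium array (circles) and the control array (squares), 1 array each; the dashed line is the filter level of 4.10. Genes are ordered by their difference: Cish had the highest difference among the STAT5 targets, at 8.57 with conditioned medium and 4.85 in the control, and Chil3 the lowest among the STAT6 targets, at 7.57 with conditioned medium and 10.55 in the control.

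Macrophages express many STAT6 targets, and their markers were read beside them. Of 8 macrophage and monocyte markers measured, 2 passed 2-fold downward, Csf1r and Adgre1, and 1 passed it upward, Ly6c2. Their summed level was 14.06 with conditioned medium and 13.59 in the control. A summed level is led by its brightest probe sets and is not a count of cells. The brightest here were Cd68 (12.37 with conditioned medium and 12.13 in the control), Fcgr1 (12.44 and 11.45) and Ly6c2 (11.95 and 10.76). Of 11 neutrophil markers, 8 passed 2-fold downward and 0 upward, and their summed level was 11.42 with conditioned medium and 13.38 in the control. The part of these cells in the STAT values was not tested. In RNA of a whole culture, fewer cells of a type and less RNA per cell cannot be told apart. Of 10 dendritic cell markers measured, 2 passed 2-fold upward, H2-Aa and H2-Ab1, and 3 passed it downward, Batf3, Itgax and Flt3. Their summed level was 12.44 with conditioned medium and 11.84 in the control. The brightest dendritic cell markers were H2-Ab1 and H2-Aa with conditioned medium, and Irf8 and H2-Ab1 in the control. Batf3 had 5.27 with conditioned medium and 7.30 in the control. H2-Aa had 10.94 with conditioned medium and 9.06 in the control and Itgax 7.15 with conditioned medium and 8.18 in the control, whereas Zbtb46, a defining factor of conventional dendritic cells, lay under the filter level at 3.65 on both arrays. Flt3 had 3.15 with conditioned medium, under the filter level, and 4.38 in the control. Of 7 mammary epithelial markers measured, 3 were kept, and 2 of these passed 2-fold upward, Krt19 and Cdh1. Krt8, the other kept marker, had 4.77 with conditioned medium and 4.96 in the control. Epcam had 3.24 with conditioned medium and 2.67 in the control, and Krt18 had 3.30 and 3.51. Both lay under the filter level on both arrays, as did Krt14 and Esrp1.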

How the data were processed

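The authors deposited 1 table with a log2 value per probe set and array, made with Affymetrix Expression Console, per the submitters' processing notes. The log2 unit was inferred from the values, which ran from 0.02 to 13.50 with conditioned medium and from -0.26 to 13.42 in the control. For version, algorithm and genome build, the sources used here give nothing. Per the labels' protocols, total RNA was extracted with Trizol and labelled with biotin.

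A platform annotation gave 1 symbol to 23521 of 41345 probe sets. A gene was represented by its probe set with the highest mean and kept when its higher value reached 4.10, which kept 13712 genes. The difference is conditioned medium minus control, and a fold is 2 raised to it. With 1 array a group, no p-value was computed, and the number of arrays limits the precision. Where a low value lay under 4.10, the fold was also taken against 4.10.

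The members and the 10 lists were chosen with earlier results of these data known. Named by rule were the STAT genes, the Janus kinases, Irf9, Socs1, Socs3, Cish, Ifnb1 and Il6, the 2 highest and 2 lowest kept genes of each list, and the 2 genes nearest to each STAT gene; others were named after their values were seen. One further gene of the family is not reported here. Alternatives were quantile normalization, loess (fraction 0.3, 3 iterations), centring, the mean of probe sets, 3 other filters, and sizes of 1.5-fold and 3-fold. The counting was tested on simulated data. Promoters came from RefSeq tables of GRCm38.p6. Python 3.11.15, numpy 2.4.6, pandas 2.3.3, statsmodels 0.14.6, biopython 1.88 and matplotlib 3.10.9 were used.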

Additional observations from a re-analysis of the deposited data

How the results depend on the processing

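The 6 STAT differences kept their direction under the 3 other scalings, and none moved by more than 0.10. The mean of all probe sets and the raising of low values could not move them, since each STAT gene has 1 probe set and lay above the filter level on both arrays. At 3-fold, 1 STAT gene (Stat2) counted as higher instead of 2. At 1.5-fold, 3 counted as higher, with Stat5b added, and 1 (Stat4) counted as lower instead of 0. Over all lists, 17 genes were lower at 1.5-fold, against 11 at 2-fold. Of 268 further values for single lists and for all kept genes, 249 stayed close and 19 moved. No list median changed sign. The other values are counts, which cannot change sign, and counts that stayed at 0 are among those that stayed close. Of all 13712 kept genes, those counted as higher were 568 at 3-fold and 2274 at 1.5-fold (1184 at 2-fold). Those counted as lower were 290 and 2458 (938 at 2-fold). The receptors counted as higher were 4 and 15 (9 at 2-fold), the partners 2 at 3-fold (5 at 2-fold) and the STAT5 targets 4 at 3-fold (8 at 2-fold). The STAT4 targets were 2 at 3-fold and 2 with the filter at the 75th percentile (4 at 2-fold). At 1.5-fold, 2 Janus kinases counted as higher, and 1 ligand, 3 inhibitors and 1 STAT5 target as lower (0 each at 2-fold), and at 3-fold 0 partners counted as lower (1 at 2-fold). The ligands' median of 0.95 was 0.27 without a filter, 1.75 with a filter on the mean and 3.11 with the 75th percentile, where that of the STAT5 targets was 1.84 (1.01 as reported); fewer or more genes entered by construction. No paired analysis was possible because each condition had 1 array and the labels give no replicate numbers. Signal near 4.10 limits Stat4, Stat5a and the STAT4 targets.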

Other observations

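RefSeq windows were matched to 10135 of 12478 kept protein-coding genes (81.2%). Of 404 genes with the interferon-response core (GAAA, any 2 bases, GAAA) in a window, 98 (24.3%) passed 2-fold upward and 26 (6.44%) downward. Of 9731 genes without it, 750 (7.71%) were higher and 687 (7.06%) lower. Among genes with a single window, an alternative chosen after seeing the data, the shares higher were 27.4% with the core and 7.76% without. For TTCNNNGAA, 10.4% of 840 genes with it and 8.19% of 9295 without it were higher, and 6.19% and 7.11% were lower. The median log2 difference was -0.12 with it and -0.07 without it. For the wide STAT element (TTC, any 4 bases, GAA), 9.58% of 668 genes with it and 8.28% of 9467 without it were higher, and 9.58% and 6.86% were lower. These shares have no test, since each rests on 1 array per condition and genes are not replicates.

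The genes nearest to each STAT gene in both values were found over the 2 arrays only, by the larger of the distances on each array. Levels of different probe sets cannot be compared, so nearness says little beyond a similar difference. They were Mterf1b and Tent5a for Stat2 (distances of 0.051 and 0.11 log2 units), Itgav and Slc29a3 for Stat3 (0.014 and 0.025), and Tsen54 and Elp3 for Stat4 (0.014 and 0.033). For Stat5a they were Ly6g6c and Dlg3 (0.0082 and 0.016), for Stat5b Echdc2 and Vdr (0.011 and 0.011), and for Stat6 Rnf138 and Scrn3 (0.010 and 0.023).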
